A study of Homo sapiens with 4 samples.

Results

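Retinoic acid (RA) treated and control (CTR) cells of the NKX2.5:GFP line were compared within the GFP-positive fraction, 1 library against 1. These were 2 of the 4 sorted libraries of the series. All 60234 Ensembl genes of the count table entered, and the 11186 with at least 10 CPM (counts per 1000000 reads of the scaled library) in either library were described across gene families and pathways. The line is a single human embryonic stem cell line with GFP placed under the NKX2-5 locus, and GFP marks cells that have switched on this cardiac transcription factor gene. In all groups the cells were differentiated as embryoid bodies formed by spinning, with a cytokine cocktail on day 0 that was refreshed on day 3, and were sorted on GFP at day 31 by the series description, while the study's methods give the day before. The RA group received 1 µM RA from day 4 to day 7, and the CTR group received the solvent DMSO over the same days in separate cultures. The GFP-negative cells of both cultures, 1 library each, serve below as the comparison for what lies outside the gate.

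RA is the active derivative of vitamin A. It is made from retinol through retinaldehyde, is carried by cellular binding proteins, is removed by CYP26 enzymes and acts through RAR and RXR nuclear receptors on the DNA of its target genes. In the embryo it patterns the heart tube from its inflow end, and HOX genes are its best known targets.

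The counts summed to 28125727 with RA and 28643091 in the control, and to 26222787 and 4371101 in the RA and CTR GFP-negative libraries. Each group had 1 library, so the differences below rest on single libraries and conditions were not tested against each other. Intervals are 95%, exact Poisson for CPM and Clopper-Pearson for ratios, and cover counting error only. They can be too narrow even for that, since amplified reads are not independent molecules. Differences are RA minus CTR in log2(CPM + 1), a scale that understates the change of low genes. A gene was called higher or lower with RA when this difference was at least 1 or at most -1, a 2-fold step. Where a pair of values is given, RA stands first. NKX2-5 was at 463 CPM under RA and 593 CPM in the control, against 9.74 CPM and 14.5 CPM in the GFP-negative libraries, so it was high on the GFP-positive side of both sorts. The 10 cardiomyocyte markers summed to 23714 CPM under RA and 24218 CPM in the control, against 581 CPM and 1106 CPM in the GFP-negative cells. Within this sum 8 of the 10 markers were below 0 with RA, with a median of -0.39 and MYH7 called lower, while ACTC1 was at 7538 and 4839 CPM. These are bulk libraries, in which fewer cells of a type and less RNA per cell cannot be told apart.

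Of the 11186 genes, 463 (4.14%) were higher with RA and 187 (1.67%) were lower. The median difference over all of them was 0.02, and the middle 50% lay between -0.18 and 0.22. At 4-fold the imbalance was larger, with 142 genes higher and 19 lower. Of these calls, 244 of the higher and 107 of the lower genes had at least 10 CPM in both libraries, and the others passed the filter only through the library in which they were high. Protein-coding genes gave 444 of the higher and 161 of the lower calls among 10525 tested. Long noncoding RNAs leaned the other way, with 8 higher and 14 lower among 239 and a median of -0.25. The plot of RA against control levels shows the bulk of the genes on the diagonal and a broader upper cloud.

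**Figure D1:**
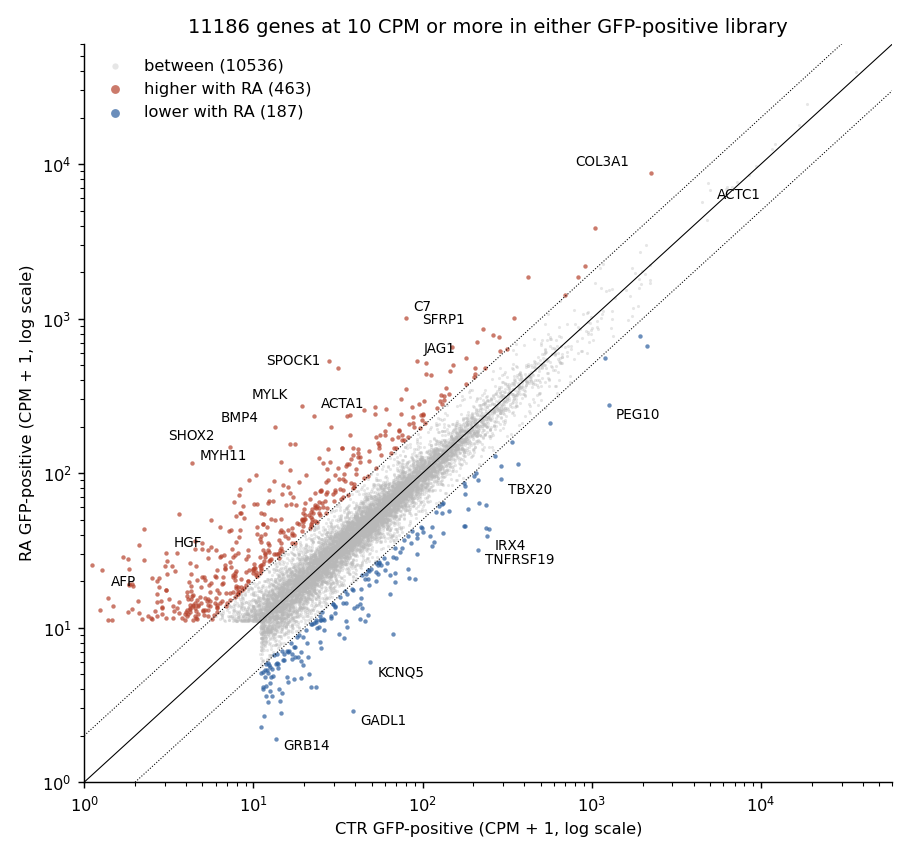
CPM + 1 of each gene in the RA GFP-positive library (vertical, log scale) against the CTR GFP-positive library (horizontal, log scale), 1 point per gene. The solid line marks equal levels and the dotted lines a 2-fold step; 463 genes lie on or above the upper one and 187 on or below the lower one.

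The largest differences upward included genes of smooth muscle contraction, of the venous pole of the heart and of secreted signals. MYH11, the smooth muscle myosin heavy chain, had 3069 reads under RA and 96 in the control, a difference of 4.73 and a ratio of 34.3 (interval 27.95 to 42.4). SHOX2, a homeobox factor of the sinus venosus, had 3931 and 179 reads, with a ratio of 23.5 (20.3 to 27.5). The 15 largest differences also held NR2F2 and BMP4, STMN2, a microtubule regulator of neurons, RHOJ and RAB3C, both small GTPases, and CCKAR, a receptor for cholecystokinin. AFP of fetal liver, the imprinted RTL1, the proteoglycan SPOCK1, the kinase MYLK and the complement component C7 were also among them. The lowest difference among these 15 was 3.66 for C7, which rested on 26926 and 2257 reads.

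Downward, the largest difference was that of GADL1, an enzyme related to glutamate decarboxylase, with 51 reads under RA and 1080 in the control. This is a difference of -3.73 and a ratio of 0.0506 (interval 0.0374 to 0.0670). KCNQ5, a voltage-gated potassium channel, followed at -3.04, with 4.97 CPM under RA and 48.1 CPM in the control. GRB14, an adaptor that binds the insulin receptor, had 24 and 360 reads, a ratio of 0.0714 (0.0452 to 0.108). TNFRSF19, a receptor of the TNF family, was at 30.96 CPM against 212 CPM, and PLCXD3, a protein with a phospholipase C domain, at 43.3 CPM against 236 CPM. KEL, the metalloprotease of the Kell blood group, was at 19.7 CPM under RA and 89.6 CPM in the control. TRDN-AS1, an antisense RNA of the triadin gene, had 83 and 645 reads. NUP62CL, SH3GL3 and the pseudogene EGFEM1P had differences between -2.29 and -2.05, and the ventricular factors HEY2 and IRX4, the light chain MYL2 and the imprinted PEG10 were also among the 15.

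**Figure D2:**
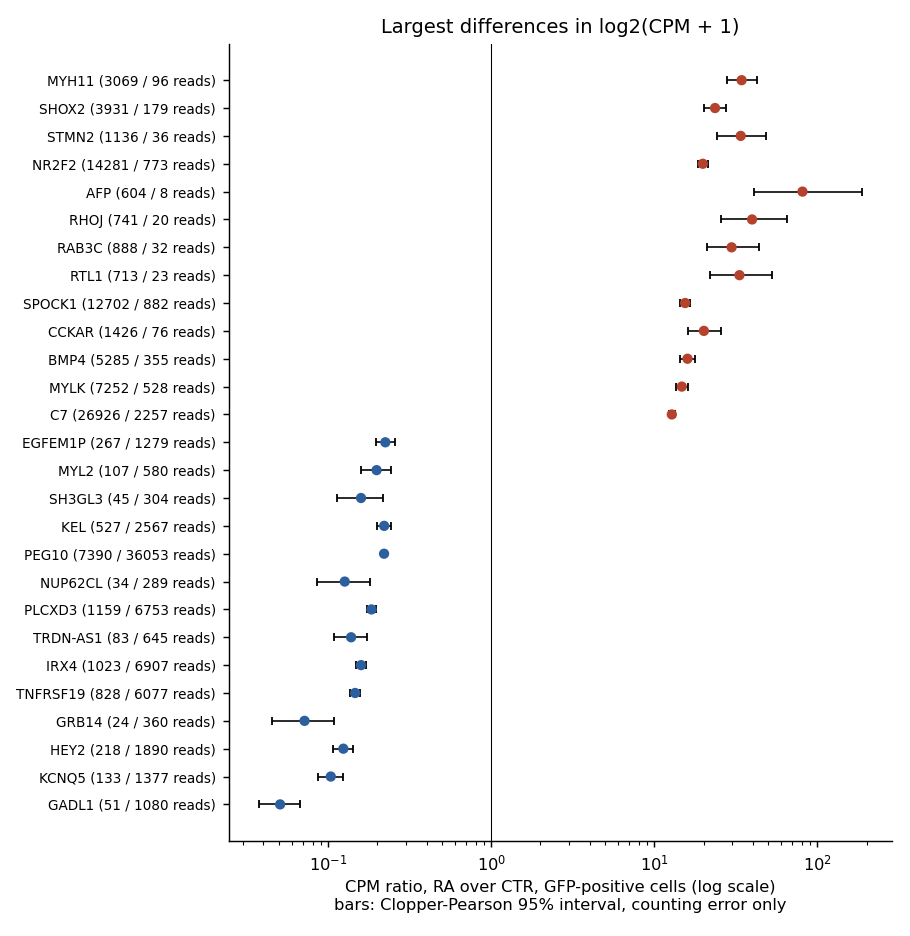
CPM ratio of RA over CTR in GFP-positive cells (horizontal, log scale) for the genes named above among the 15 largest differences in each direction, with the reads of both libraries beside each name. Bars are Clopper-Pearson 95% intervals and cover counting error only; genes are ordered by their difference, every interval drawn excludes a ratio of 1, and that of AFP, with 8 control reads, is the widest drawn.

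Measured in absolute level, the gains were led by other genes. Among the 10 largest gains in CPM, 4 were matrix genes: COL3A1 at 8758 CPM under RA and 2247 CPM in the control, COL1A1 at 3879 and 1047 CPM, COL1A2 at 1856 and 422 CPM, and FN1 at 2184 and 916 CPM. The mitochondrial transcripts MT-RNR2, MT-CO1 and MT-ND1, the neighbouring imprinted genes H19 and IGF2 and the cardiac actin gene ACTC1 were the others, with differences between 0.12 and 0.64, all under the 2-fold step. The 10 largest losses held MYH7, PEG10 and COL2A1, which were called, and MYBPC3, TTN, TNNI1, NREP, ZFP36L1, ENO1 and SRRM2, which were not and lay between -0.79 and -0.32. TTN, the giant spring of the sarcomere, was at 1043 CPM against 1734 CPM, and 17.7% of its exon bases overlap exons on the opposite strand.

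Genes of retinoid handling differed at day 31, while RA had been given until day 7. Of 19 such genes, 10 were tested, 6 (60.00%) were higher, against 4.14% of all tested genes, and 0 lower, with a median of 1.48 against 0.02. Synthesis and binding genes made up the higher group. ALDH1A1, which oxidizes retinaldehyde to RA, was at 22.4 CPM (interval 20.6 to 24.2) under RA and 2.44 CPM (1.90 to 3.09) in the control, so the intervals lay far apart. ALDH1A2, the main such enzyme of the embryo, was at 39.3 and 9.46 CPM, a ratio of 4.15 (3.63 to 4.76). DHRS9, a dehydrogenase that acts on retinol, was at 433 and 112 CPM. The carriers of RA itself, CRABP2 and CRABP1, were at 266 and 85.95 CPM and at 11.7 and 4.01 CPM. Of the 6 higher genes, 3 reached 10 CPM in both libraries, and over the 7 tested genes that did so the list median was 0.33. The genes of breakdown were low in both, with 1 and 5 reads for CYP26A1, 72 and 43 for CYP26B1 and 4 and 1 for CYP26C1.

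In the GFP-negative cells the same 10 genes had a median of -0.30 between RA and control, against 0.07 over all 11186 genes there. ALDH1A1 and ALDH1A2 were also more abundant outside the gate, at 60.9 and 103 CPM in the RA GFP-negative library, whereas DHRS9 was at 37.3 CPM there. The ratio of RA GFP-positive to RA GFP-negative cells was thus 11.6 for DHRS9, 0.367 for ALDH1A1 and 0.381 for ALDH1A2.

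Among the receptors no gene was called. All 12 RAR, RXR and coregulator genes were tested, and none passed the 2-fold step in either direction. RARB, a receptor gene that is itself a classical RA target, was at 21.2 CPM under RA and 13.7 CPM in the control, a difference of 0.59. RXRG was the lowest, at 13.2 against 23.5 CPM. Among MEIS, PBX and related homeobox cofactors of HOX proteins, 1 of 10 tested (10%, against 4.14% of all genes) was called higher, MEIS3, at 98.4 CPM under RA and 39.5 CPM in the control.

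HOX genes were sparse in the GFP-positive cells. Of 39 HOX genes, 3 reached 10 CPM, and 1 of these 3 (33.3%, against 4.14% of all genes) was called higher and 0 lower. This was HOXB4, with 774 reads under RA and 350 in the control (ratio 2.37, 2.09 to 2.70). Its neighbours HOXB2 and HOXB3 differed by -0.22 and -0.02. HOXA2 and HOXA3 of the HOXA cluster lay under the filter and were near absent from the control. HOXA2 had 15 and 0 reads, which is at least 5.36-fold higher when a floor of 3 reads stands for the control, and HOXA3 had 107 and 4 reads. Thus HOXA2 and HOXA3 were seen almost only with RA, while HOXB2 and HOXB3 were read in both libraries.

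Genes of contraction held members in both directions. Of the 43 sarcomere genes tested, 5 (11.6%) were higher and 4 (9.30%) lower, against 4.14% and 1.67% of all genes, and 34 lay between, or 5 and 2 of the 41 with 10 CPM in both libraries, with a median of -0.14. The smooth muscle markers, all 12 tested, had 6 higher, of which 4 had 10 CPM in both libraries, 0 lower, and a median of 0.88. Scaled by library size alone, the smooth muscle median was 0.42, since ACTG2 then fell under the filter. MYLK, the kinase that switches on smooth muscle myosin, was at 271 CPM under RA and 18.4 CPM in the control, at a ratio of 14.7 (13.5 to 16.1). ACTG2, a smooth muscle actin, had 275 and 13 reads, SYNPO2, an actin-binding protein, was at 106 and 26.1 CPM, and ACTA2 was at 498 and 151 CPM. The 6 smooth muscle genes that were not called include CNN1 at 274 and 251 CPM, SMTN at 77.6 and 74.9 CPM and LMOD1 at 41.6 and 51.2 CPM. MYH11 and MYLK were higher in the RA GFP-positive than in the RA GFP-negative library, by 4.04 and 2.17 times, while ACTG2 was at 0.202 times its level there.

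Within the sarcomere, ACTA1, the actin of skeletal muscle, was at 235 CPM under RA and 21.7 CPM in the control, a difference of 3.38. MYOM2, a protein of the M-band, was at 73.7 and 15.4 CPM. On the lower side, MYL2 and TNNT3 had 107 and 580 reads and 146 and 473 reads. Actin genes share near-identical coding sequence, and reads with several equal positions were dropped by the authors, so levels of ACTA1, ACTA2, ACTC1 and ACTG2 can be undercounted. The counting ignored strand, and 35.9% of the exon bases of ACTA2, 16.6% of those of ACTA1 and 7.32% of those of MYH11 overlap exons on the opposite strand.

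Promoters of the called genes were searched for short motifs. The CArG box, the letters that serum response factor binds, was searched on both strands from 250 bases before to 50 bases after each start in RefSeq promoters (GRCh38.p14), 1 window per gene. Of the 456 named genes that were higher, 331 matched a promoter in that table, as did 132 of the 175 named lower genes. A match was present in 15 of the 331 (4.53%), in 1 of the 132 (0.758%), FHL2, in 107 of 8812 tested genes (1.21%) and in 351 of all 27305 promoters (1.29%). Some windows lie at an internal start, and over windows within 1000 bases of the gene's own start, a choice made after seeing the data, the counts were 13 of 291 higher (4.47%), 1 of 117 lower (0.855%) and 101 of 8009 tested genes (1.26%). The 2 higher genes lost were FOXP2 and MYLK, whose windows lie 328488 and 263784 bases inside the gene. Smooth muscle and sarcomere genes with a box before the gene's own start are shown with the box in capitals, 5′ to 3′ along the gene. Windows are ACTG2 chr2:73892858-73892984 (plus), ACTA1 chr1:229434142-229434231 (minus strand) and TPM4 chr19:16067325-16067414 (plus).
ACTG2: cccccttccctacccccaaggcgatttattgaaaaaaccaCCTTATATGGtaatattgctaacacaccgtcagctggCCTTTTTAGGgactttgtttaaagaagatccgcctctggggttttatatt
ACTA1: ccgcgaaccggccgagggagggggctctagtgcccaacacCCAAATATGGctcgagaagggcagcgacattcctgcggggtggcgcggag
TPM4: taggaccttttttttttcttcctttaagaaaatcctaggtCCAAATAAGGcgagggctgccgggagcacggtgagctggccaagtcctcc

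Counted from the start, the box began at base -110 and -73 in ACTG2, at -97 in ACTA1 and at -173 in TPM4, a tropomyosin that was at 326 CPM under RA and 143 CPM in the control. Those with a box at the gene's own start were otherwise RHOJ, SPARCL1, HTRA3, RPS6KA2, KCNK3, PRUNE2, AQP3, NR2F1, RND3 and ST6GALNAC3, with differences between 4.08 and 1.07. The letters TATAAA of the TATA box were in 47 of the 331 (14.2%), 11 of the 132 (8.33%), 5.23% of the tested genes and 11.95% of all promoters, and 6 promoters of higher genes held both motifs and in 1 they overlapped. The letters TGACGTCA of the cyclic AMP response element were in 3.02% of the higher genes, 0 of the 132 lower genes, 3.44% of the tested genes and 1.98% of all promoters. Direct repeats of the retinoid receptor type, AGGTCA given again after 5 bases or after 1 base, were in none of the 331 or 132. They were in 0 and 3 of the 8812 tested genes and in 1 and 6 of all 27305 promoters. With so few matches these exact strings cannot tell the called genes from the rest. A match is a string of letters and not a measured binding site.

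Transcription factors of the inflow region lay on both sides. ISL1, a LIM homeobox factor of the second heart field and sinus node, was at 77.7 CPM under RA and 7.36 CPM in the control (ratio 10.55, 9.15 to 12.2). With SHOX2, BMP4 and the calcium sensor VSNL1, at 24.1 and 2.30 CPM, it led the sinus node and venous pole list, in which 8 of 17 tested genes (47.1%) were higher and 2 (11.8%) lower, against 4.14% and 1.67% of all genes. Of the higher ones 3 had 10 CPM in both libraries, and the list median of 0.76 was 0.26 over the 12 genes that did. The lower members were TBX18, at 10.54 CPM under RA and 27.95 CPM in the control, and TBX3, at 21.2 and 45.4 CPM, both T-box factors of the sinus node, and HCN4, the pacemaker channel, differed by 0.21. Among 25 cardiac transcription factors, ISL1, which passed the filter only through RA, was the only one called higher (4.00%) and 5 were lower (20%, against 1.67% of all genes). Of the 23 with 10 CPM in both libraries 0 were higher and 4 lower. TBX20, a T-box factor of the heart, was at 90.4 CPM under RA and 291 CPM in the control, and HAND1 was at 3.74 and 18.1 CPM. GATA4 was level at 603 and 529.6 CPM. Of 16 atrial genes 6 (37.5%) were higher and 0 lower, and of 16 ventricular genes 0 were higher and 8 (50%) lower. With 10 CPM in both libraries, 5 of 15 atrial genes were higher and 5 of 13 ventricular genes lower.

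The called forkhead genes were factors of several tissues. FOXC1 and FOXC2, factors of mesenchyme and vessels, were at 88.5 and 12.3 CPM and at 22.9 and 9.004 CPM. FOXP2 was at 29.3 CPM under RA and 2.51 CPM in the control. These were the 3 called among 14 tested FOX genes (21.4%, against 4.14% of all genes), with a list median of 0.06, and FOXC1 was the 1 call among the 12 with 10 CPM in both libraries. Of 19 nuclear receptors outside the retinoid receptors, 4 (21.1%) were higher, 3 of them with 10 CPM in both libraries, and none lower, with a median of 0.08. NR2F2, NR2F1 and NR4A1 were among them. PHOX2A, a homeobox factor of autonomic neurons, was at 62.5 and 9.04 CPM, and at 17.4 times its level in the RA GFP-negative cells.

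Secreted signals and their receptors are given by pathway, and their counts stand against 4.14% higher and 1.67% lower over all genes. In the BMP and TGF-beta pathway, which patterns mesoderm and chambers, 7 of 52 tested genes (13.5%) were higher and 3 (5.77%) lower, or 5 and 2 of the 48 with 10 CPM in both libraries, with a median of 0.16. The ligand BMP4 had 5285 reads under RA and 355 in the control, at a ratio of 15.95 (14.3 to 17.8), although 16.3% of its exon bases overlap an antisense gene. Its level of 12.4 CPM in the control was below that in both GFP-negative libraries, 102 and 93.3 CPM. The antagonist GREM1 was at 11.5 CPM under RA and 1.12 CPM in the control. TGFBI, a matrix protein induced by TGF-beta, was at 117 and 13.5 CPM.

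In the WNT pathway 5 of 33 genes were higher and 2 lower, or 4 and 2 of 30 with 10 CPM in both libraries, with a median of -0.04. The secreted antagonists SFRP1 and SFRP5 were at 852 and 228 CPM and at 145 and 32.6 CPM. The receptor FZD7 was at 145 CPM under RA and 32.3 CPM in the control, at a ratio of 4.50 (4.19 to 4.84), while FZD1 was at 88.8 and 211 CPM. The R-spondin RSPO3 was at 32.7 CPM under RA and 113 CPM in the control, and of the R-spondin receptors LGR5, which passed the filter only through RA, was at 10.96 and 1.40 CPM and LGR4 at 113 and 214 CPM. AXIN2, a general WNT target, was level at 11.3 and 10.02 CPM.

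Of 23 FGF genes, 4 were higher and 1 lower, or 2 and 1 of 19 with 10 CPM in both libraries. The feedback genes DUSP6, SPRY4 and ETV5, which FGF signalling induces, were at 29.4 and 10.6 CPM, 49.6 and 18.9 CPM, and 23.9 and 9.88 CPM, with 28.6% of the exon bases of DUSP6 shared with an antisense gene. FGF23, a hormone of phosphate balance, had 839 reads under RA and 113 in the control. FGF10, a ligand of the second heart field, was at 10.3 CPM against 23.7 CPM. The Notch list had 6 higher and 1 lower of 22, or 4 and 0 of 16 by that filter. The ligand JAG1 was at 535 CPM under RA and 91.1 CPM in the control, and the target HEYL at 13.8 and 1.85 CPM, whereas the target HEY2 was at 8.15 and 65.96 CPM. HES1 and NOTCH3 were also called, at 87.5 and 33.9 CPM and 211 and 86.7 CPM. In the hedgehog list 3 of 14 were higher, 1 with 10 CPM in both libraries, and 0 lower. The higher genes were the coreceptor BOC, the inhibitor HHIP and the secreted SCUBE1. The general target PTCH1 was at 13.5 and 12.7 CPM.

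Other growth factor genes gave 11 higher (8 with 10 CPM in both libraries) and 4 lower of 34, with a median of 0.37. HGF, a ligand made by mesenchyme, had 789 reads under RA and 59 in the control (ratio 14.3). The receptor PDGFRB was at 124 and 23.3 CPM and EGFR at 41.5 and 6.42 CPM, while the ligand PDGFD was at 20.04 and 82.1 CPM. The neuregulin receptors ERBB3 and ERBB4 were both lower, at 11.1 and 46.3 CPM and at 43.6 and 97.5 CPM, and EGF was at 12.9 CPM under RA and 39.9 CPM in the control. HGF and PDGFRB were higher outside the gate, at 96.5 and 472 CPM in the RA GFP-negative cells, and what such cells contributed within the gate was not tested.

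Among ligands and receptors of axon guidance, 9 of 54 tested genes were higher and 3 lower, or 6 and 0 of 47 with 10 CPM in both libraries, with a median of 0.18. SLIT2, a secreted repellent, was at 242 CPM under RA and 51.5 CPM in the control, and its receptor ROBO2 at 9.05 and 34.7 CPM. SEMA3D was at 43.7 and 9.53 CPM and EPHA8 at 14.4 and 3.11 CPM.

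**Figure D3:**
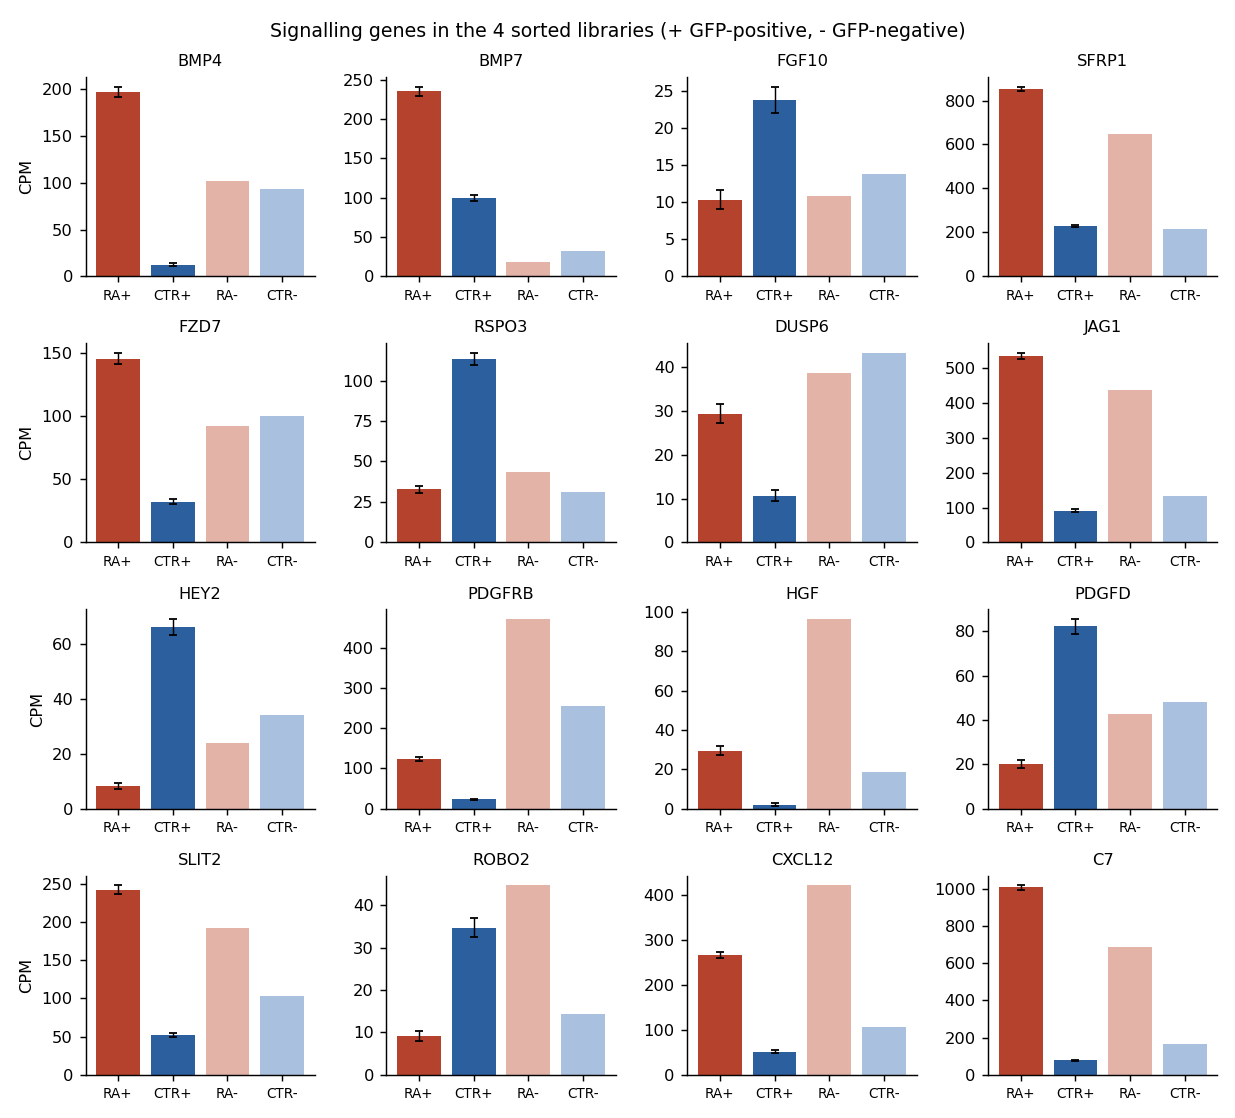
CPM of 16 signalling genes in the RA and CTR GFP-positive libraries (dark bars, with exact Poisson 95% intervals) and the RA and CTR GFP-negative libraries (pale bars, no interval drawn). BMP4, SFRP1, FZD7, JAG1, SLIT2 and C7 have their highest bar in the RA GFP-positive library, RSPO3, HEY2, PDGFD and FGF10 in the CTR GFP-positive library, and PDGFRB, HGF and CXCL12 in the RA GFP-negative library.

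Extracellular matrix gave the most higher genes of the 61 lists. Of 65 tested genes of non-collagen matrix and its remodelling, 29 (44.6%, against 4.14% of all genes) were higher and 1 (1.54%, against 1.67%) was lower, and 21 of the higher genes reached 10 CPM in both libraries. Their median was 0.77, against 0.02 over all genes. SPOCK1, a heparan sulfate proteoglycan, was at 475 CPM under RA and 30.8 CPM in the control. THBS4, a thrombospondin, was at 88.99 and 8.38 CPM, and OGN, a small leucine-rich proteoglycan, had 693 and 60 reads. EFEMP1, a fibulin of elastic fibres, was at 63.6 and 6.63 CPM. The lower gene was EMILIN2, at 109.7 CPM under RA and 289 CPM in the control, whereas its relative EMILIN1 was at 512 and 104 CPM.

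Of 32 tested collagens, 12 (37.5%) were higher and 4 (12.5%) lower, against 4.14% and 1.67% of all genes, or 9 and 3 of the 28 with 10 CPM in both libraries, with a median of 0.67. COL12A1, a collagen that decorates fibrils, was at 77.2 CPM under RA and 11.3 CPM in the control, COL15A1 of basement membrane zones at 37.5 and 7.22 CPM, and COL6A3 at 259 and 59.8 CPM. The fibrillar genes COL1A1, COL1A2 and COL3A1 differed by 1.89, 2.14 and 1.96. The lower ones were COL2A1, a fibrillar collagen best known from cartilage, at 555 CPM under RA and 1195 CPM in the control, COL22A1, at 57.7 and 185 CPM, COL25A1 and COL21A1, with differences of -1.76 and -1.06. Of 12 tested cadherins and protocadherins 4 (33.3%) were higher and none lower, with no call among the 4 with 10 CPM in both libraries. The higher ones were led by CDH4 with 477 and 24 reads. Among integrins and laminins 3 of 23 (13.04%) were higher, ITGA11, ITGA9 and ITGA1, of which ITGA11 passed the filter only through RA, leaving 2 of 20. LAMA4 was the lower one (4.35%), at 34.5 CPM against 84.3 CPM.

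Markers of fibroblasts were higher beside the matrix, and the lists overlap, since all of the higher markers but PDGFRA also stand among the collagens or the other matrix genes. Of the 12 markers, 10 were tested, and 9 (90%) were higher and 0 lower, against 4.14% and 1.67% of all genes. Of the 9 markers with 10 CPM in both libraries 8 were higher. The 12 summed to 15942 CPM with RA, 4501 CPM in the control, 63295 CPM in RA GFP-negative and 32622 CPM in CTR GFP-negative cells. No marker of the list was at 0. Of the 9 higher markers 1, PDGFRA, exceeded its level outside the gate, at 295 CPM against 138 CPM in the RA GFP-negative cells, and MFAP4, which was not called, was at 0.979 of the level there. The other higher markers were more abundant outside the gate: relative to the RA GFP-negative cells, DCN stood at 0.0761, LUM at 0.0742, COL1A1 at 0.176 and COL3A1 at 0.363 of the level there. None of the higher collagens and 4 of the higher non-collagen matrix genes, SPOCK1, THBS4, SMOC1 and THBS1, exceeded their level in the RA GFP-negative cells. The part of cells of another type within the gate in the matrix values was not tested.

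Over all 463 higher genes, 268 (57.9%) were below their level in the RA GFP-negative library, against 43.6% of all tested genes, and 48 were at a ratio to it under 0.2. Of the 187 lower genes, 27 (14.4%) were below their level in the CTR GFP-negative library, against 41.1% of all. Sinus node and potassium channel genes lay mostly on the other side. Of the 8 higher sinus node genes 7, and of the 7 higher potassium channels 6, were above the RA GFP-negative level.

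**Figure D4:**
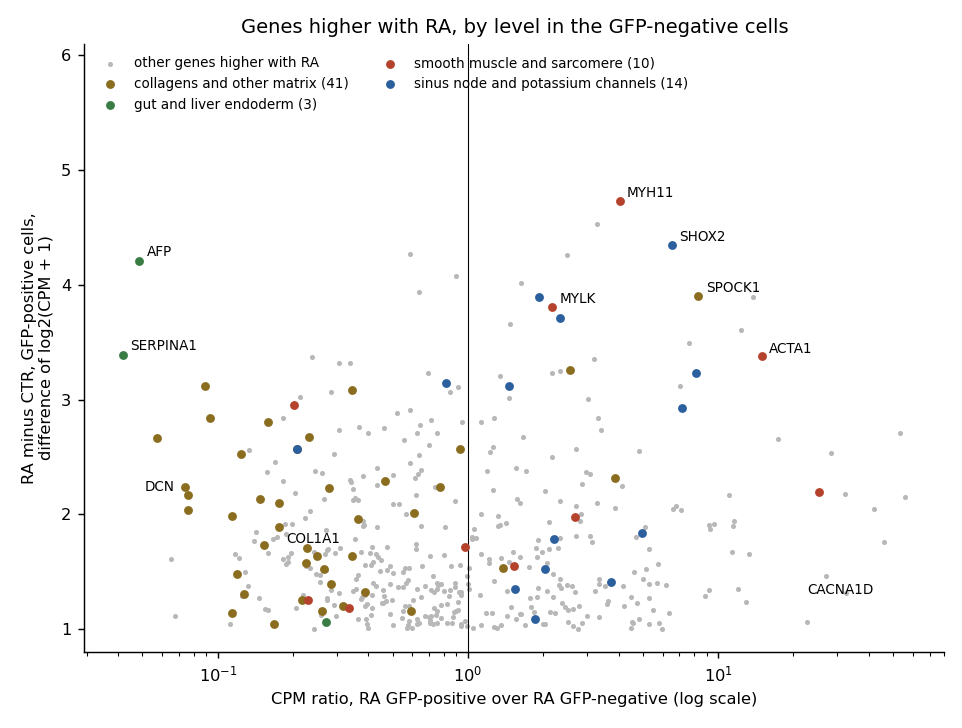
Difference of log2(CPM + 1) between RA and CTR GFP-positive cells (vertical) against the CPM ratio of RA GFP-positive over RA GFP-negative cells (horizontal, log scale) for genes higher with RA. Collagen and other matrix genes lie mostly left of the line at 1, AFP and SERPINA1 farthest left, and MYH11, SHOX2, SPOCK1 and ACTA1 to its right.

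Among complement, chemokine and cytokine genes 14 of 31 tested (45.2%, against 4.14% of all genes) were higher, 8 of them with 10 CPM in both libraries, with 1 lower (3.23%, against 1.67%) and a median of 0.77. C7, a component of the membrane attack complex, was at 1007 CPM under RA and 78.8 CPM in the control, and at 687 CPM in the RA GFP-negative cells. The neutrophil chemokine CXCL2 and the alarmin IL33 had 461 and 51 reads and 439 and 58 reads. CXCL12, a chemokine of the mesenchyme, was at 267 CPM under RA and 51.5 CPM in the control, while CXCL14 was the lower gene, at 8.08 and 31.3 CPM. C4A and C4B were both called, but they are near-identical copies whose levels are uncertain. Genes of interferon response and antigen presentation had 0 higher and 0 lower of 21.

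Potassium channels gave 7 higher (3 with 10 CPM in both libraries) and 2 lower (none with that level in both) of 28 tested (25% and 7.14%, against 4.14% and 1.67% of all genes), with a median of 0.21. The lowest of them was KCNQ5, with 133 and 1377 reads. The auxiliary subunit KCNE4 was at 48.98 and 4.64 CPM and the modifier KCNG1 at 70.7 and 7.22 CPM. KCNH2, the channel of the rapid delayed rectifier, was level at 295 and 308 CPM. CACNA1D, a calcium channel subunit of pacemaker and atrial cells, was at 117 CPM under RA and 41.7 CPM in the control. Among 21 genes of gap junctions and the intercalated disc, PKP2, a desmosomal plakophilin, was the only one called (4.76% lower), at 114 CPM against 367 CPM. In the list of calcium cycling by the sarcoplasmic reticulum, SLN was the only one called of 25 (4.00% higher), with 482 and 26 reads. It passed the filter only through RA, and of the 23 genes with 10 CPM in both libraries none was called.

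Receptors for hormones and transmitters and their regulators had 6 higher (27.3%) and 1 lower (4.55%) of 22, against 4.14% and 1.67% of all genes, and 3 higher and 0 lower of the 18 with 10 CPM in both libraries. Of the latter, S1PR3, a receptor for sphingosine 1-phosphate, was at 75.8 and 24.2 CPM and the G protein regulator RGS4 at 75.5 and 23.7 CPM. The genes that follow were under 10 CPM in 1 of the libraries. APLNR, the apelin receptor, was at 60.4 CPM under RA and 7.68 CPM in the control. NPR3, the clearance receptor of natriuretic peptides, was at 21.2 and 3.28 CPM. RGS6, a regulator of muscarinic signalling in pacemaker cells, had 382 and 94 reads, and LPAR3 was lower, with 70 and 339 reads. CCKAR had 1426 reads under RA and 76 in the control, and 3.86 CPM in the RA GFP-negative library against 53.3 CPM in the RA GFP-positive one.

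Immediate early genes, which many stimuli including tissue dissociation induce, were a further group with many higher genes. Of 29 tested, 14 (48.3%, against 4.14% of all genes) were higher, 13 of them with 10 CPM in both libraries, and none lower, and the median was 0.93 against 0.02. FOSB was at 233 CPM under RA and 34.8 CPM in the control, EGR3 at 62.9 and 11.3 CPM, EGR2 at 61.5 and 16.9 CPM, and EGR1, which was not called, at 2143 and 1125 CPM. The same list had a median of 0.87 in the GFP-negative cells, where FOSB was at 373 CPM under RA and 178 CPM in the control. The list thus differed in the same direction between the RA and control cultures in both fractions. Its part in other results was not tested, and CCN1 and CCN2 stand in this list and in that of growth factors. Of 39 heat shock and unfolded protein response genes, 1 (2.56%, below the 4.14% of all genes) was called higher, HSPB8, at 263 CPM under RA and 121 CPM in the control. In the hypoxia list 1 of 27 (3.70%, also below that share) was called higher, EPAS1, a hypoxia-inducible factor of vessels, at 34.6 and 10.2 CPM.

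Core machinery gave no calls. None of 79 nuclear subunits of oxidative phosphorylation, 13 mitochondrially encoded proteins, 83 cytosolic ribosomal proteins, 73 mitochondrial ribosomal proteins or 42 proteasome subunits passed the 2-fold step in either direction. Their medians were 0.12, 0.10, -0.16, 0.02 and 0.12, and that of the mitochondrial ribosomal proteins was -0.05 when scaled by library size alone. In the cytosolic ribosomal list 68 of 83 were below 0, and in the GFP-negative cells the median was 0.35. Glycolysis had a median of -0.17 with 27 of 35 below 0 and 1 higher gene (2.86%, against 4.14% of all genes), ALDOC, an aldolase isoform, at 238 CPM under RA and 96.7 CPM in the control. Of 42 genes of fatty acid uptake and oxidation 1 (2.38%) was higher, 2 (4.76%, against 1.67% of all genes) lower and 39 between, with a median of 0.06, and of the 39 with 10 CPM in both libraries none was called. FABP5, a fatty acid carrier that also binds RA, was at 50.6 and 7.78 CPM, and the uptake receptor CD36 and the coactivator PPARGC1B had 116 and 314 reads and 230 and 559 reads. Sterol synthesis had 2 lower genes of 31 (6.45%, against 1.67% of all genes) and none higher, STARD4 and SC5D, at 62.1 and 129 CPM and 60.1 and 124 CPM. CKM, the muscle creatine kinase, was at 158 CPM under RA and 338 CPM in the control.

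**Figure D5:**
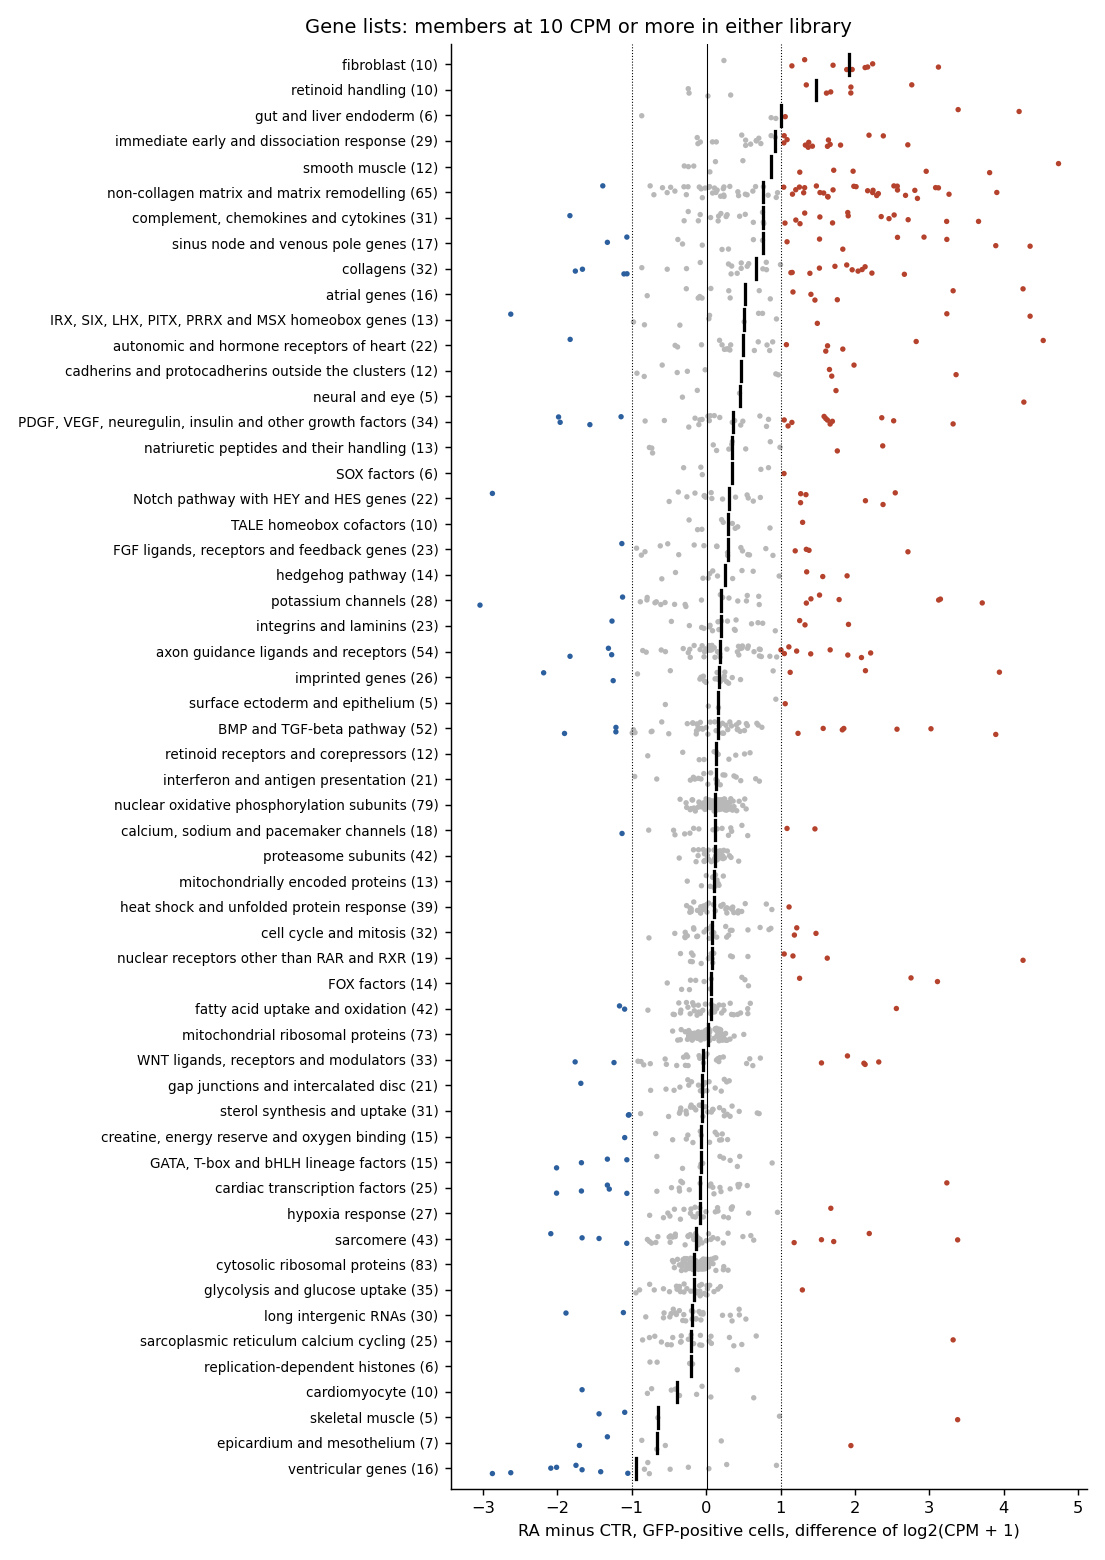
Difference of log2(CPM + 1) between RA and CTR GFP-positive cells (horizontal) for members of each gene list with at least 5 tested genes (number in brackets), 1 point per gene, red where called higher, blue where lower and grey between. Thick ticks are list medians, the thin line is the median of all 11186 genes and dotted lines mark the 2-fold step; the ribosomal, proteasome and respiratory lists stay between the dotted lines, and fibroblast, retinoid handling and smooth muscle lists lie to the right.

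Of 26 tested imprinted genes 3 (11.5%) were higher and 2 (7.69%) lower, against 4.14% and 1.67% of all genes, or 2 and 2 of the 23 with 10 CPM in both libraries. PEG10, a gene of retroviral origin expressed from the paternal allele, had 7390 reads under RA and 36053 in the control, at a ratio of 0.220 (0.214 to 0.225). Its neighbour SGCE, a sarcoglycan, was at 29.8 and 72.3 CPM. TFPI2, a protease inhibitor gene of the same chromosome, lay on the other side, at 64.7 CPM under RA and 29.03 CPM in the control. They lie on chromosome 7 of GRCh37, PEG10 from 94285637 to 94299007, SGCE from 94153516 to 94285884 and TFPI2 from 93514708 to 93520065. On chromosome 14, DLK1 (101192042 to 101204561), a regulator of Notch signalling, was at 656 CPM under RA and 148 CPM in the control, and RTL1 (101346090 to 101370059) had 713 and 23 reads. Exons on the opposite strand cover 35.7% of the exon bases of RTL1, so its reads cannot be told from those of its antisense partners. H19 and IGF2 differed by 0.46 and 0.35 and were among the 21 that lay between the thresholds.

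Of 32 tested cell cycle genes, 3 (9.38%, against 4.14% of all genes) were higher and none lower, and 1 was higher of the 28 with 10 CPM in both libraries, since MKI67 and CENPF passed the filter only through RA. MKI67 was at 11.8 CPM under RA and 3.59 CPM in the control, TOP2A at 25.9 and 10.6 CPM, and CENPF at 13.5 and 5.37 CPM. All 3 were higher in the RA GFP-negative cells than in either GFP-positive library, at 32.5, 65.3 and 32.5 CPM. CDKN1A, an inhibitor of the cycle, was at 190.2 and 231 CPM. The long intergenic RNAs had 0 higher and 2 (6.67%, against 1.67%) lower of 30, none of the 22 with 10 CPM in both libraries was called, and 24 of the 30 were below 0.

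Markers of other tissues held single genes with large differences. The 17 matched gut and liver endoderm markers summed to 127 CPM under RA and 64.5 CPM in the control, against 1437 CPM in the RA GFP-negative cells. Of these, 6 were tested, and 3 (50%) were higher and 0 lower, against 4.14% and 1.67% of all genes. Of the 2 with 10 CPM in both libraries 1 was higher. AFP had 604 reads under RA and 8 in the control, and SERPINA1 321 and 7 reads, levels that were 0.0486 and 0.0419 of those in the RA GFP-negative cells. Of the 6 tested, 5 were above 0, and CLDN6, at 13.6 and 25.6 CPM, was below. Under the filter FGB had 106 and 0 reads and TTR 11 and 94. Neural crest and glia markers summed to 286 and 110.3 CPM. Of 4 tested, 3 (75%) were higher and 1 (25%) lower, against 4.14% and 1.67% of all genes, or 1 and 1 of the 2 with 10 CPM in both libraries. The higher genes were PHOX2A, ISL1 and the neurotrophin receptor NGFR, at 127 CPM under RA and 41.9 CPM in the control, and the lower one was ERBB3. Exons on the opposite strand cover 27.2% of the exon bases of NGFR. Of 5 tested neural and eye markers 3 were above 0 and 2 below. Of the 5, 2 (40%, against 4.14% of all genes) were called higher and 0 lower, and both calls passed the filter only through RA. Of the 3 with 10 CPM in both libraries none was called. STMN2 had 1136 reads under RA and 36 in the control, and MAP2 was at 23.6 and 6.35 CPM, while the list summed to 527 and 396 CPM. Under the filter members lay on both sides. SIX6 had 0 and 34 reads, LHX2 21 and 158 and DCT 35 and 157, whereas PAX6 had 179 and 164 and TUBB3 140 and 104.

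Endothelial markers summed to 164 CPM under RA and 117 CPM in the control, blood and immune markers to 17.3 and 8.45 CPM, with HBZ and PTPRC at 0 reads in both, and pluripotency markers to 34.3 and 27.5 CPM, with DPPA2 at 0. Epicardial markers summed to 302 CPM under RA and 389 CPM in the control, of which KRT19, also a marker in the surface ectoderm list, held 173 and 253 CPM. Of 7 tested, 1 (14.3%) was higher and 2 (28.6%) lower, against 4.14% and 1.67% of all genes, or 0 and 1 of the 4 with 10 CPM in both libraries. Their median was -0.66, with 2 above 0 and 5 below. WT1, with 77 and 333 reads, and TBX18 were lower and ALDH1A2 was higher, and under the filter TCF21 had 208 and 42 reads and UPK1B 187 and 63 reads. Surface ectoderm and epithelial markers summed to 777 and 762 CPM, and skeletal muscle markers to 1618 and 2279 CPM, with MYF5 at 0. Most of the latter sum was TNNI1, at 1201 and 1884 CPM, against 57.8 CPM in the RA GFP-negative cells. MYOD1 had 9 and 0 reads and MYF6 1 and 0, and MYOG was at 11.5 and 5.30 CPM. Of 5 tested skeletal muscle markers 1 (20%), ACTA1, was higher and 2 (40%), TNNT3 and CKM, were lower, against 4.14% and 1.67% of all genes. TNNT3 passed the filter only through the control, and 1 higher and 1 lower remained of the 3 with 10 CPM in both libraries.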

How the data were processed

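RNA of cells sorted on GFP from RA and CTR cultures was sequenced, 1 library per group. The deposited values are raw read counts per Ensembl gene. To make them, the authors used SICKLE for trimming and GSNAP (2014-12-06) for alignment on a custom build of hg19, kept uniquely aligned reads, handled files with SAMtools (0.1.18) and counted with HTSeq (0.6.1p1) without using strand. No normalization was applied to the deposited counts. Dropped multiple alignments lower near-identical genes (actins, MYH6 and MYH7, C4A and C4B), and antisense overlaps cannot be resolved.

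TMM factors (edgeR 4.0.16, R 4.3.3) from all 4 libraries ranged from 0.951 to 1.07. CPM, intervals (scipy 1.17.1) and differences of log2(CPM + 1) were computed in Python 3.11.15 with pandas 2.3.3 and drawn with matplotlib 3.10.9. Genes with 10 CPM in either GFP-positive library were kept. The calculation was tested on simulated data. With 1 library per group no p-value was computed. Names matched 55538 (92.2%) of 60234 genes. Alternatives were other scalings (DESeq2 1.42.0 among them), filters, pseudocounts, size rules, thinning and, chosen after seeing the data, promoter windows at the start of the gene only.

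The question, the 61 lists and their members were chosen with earlier results of these data known. Named genes were the 15 largest differences each way, the 10 largest CPM gains and losses, and per list the up to 4 largest called members and the highest in CPM, with NKX2-5 as the check of the sort and list members with few reads. Further genes were chosen after their values were seen: AXIN2, C4A, C4B, CCN1, CCN2, CNN1, COL21A1, COL22A1, COL25A1, CRABP1, CRABP2, CXCL12, CXCL14, EGF, EMILIN1, EMILIN2, ERBB4, FGF10, FZD1, HES1, HOXB2, LGR4, LMOD1, MFAP4, NOTCH3, PDGFRA, PTCH1, RARB, RGS4, RSPO3, RXRG, S1PR3, SMOC1, SMTN, TCF21, TFPI2, THBS1, TPM4, UPK1B, BMP7 (plotted) and the genes named for a promoter match. The list members ACACA, GDF10, NOV, SPON1, UHRF1, CCL5, LHX1, SCX, HYMAI and PEG13 were not analysed here, and some genes that the rule names are not reported here.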

Additional observations from a re-analysis of the deposited data

Results flagged for a closer look

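For 4 of the genes reported here the difference between RA and control had opposite signs in the GFP-positive and GFP-negative fractions and was at least 1 in size in both. Smaller differences of opposite sign are not listed. With 1 library per group this contrast of fractions was not tested, and the CTR GFP-negative library was the shallowest. ERBB3, a neuregulin receptor, differed by -1.96 in GFP-positive cells (298 and 1326 reads) and by 2.61 in GFP-negative cells (1630 and 45 reads). ROBO2, a receptor for SLIT ligands, differed by -1.83 (242 and 994 reads) and 1.58 (1147 and 67 reads). The T-box factor TBX3 differed by -1.06 (566 and 1300 reads) and 1.54 (541 and 31 reads). The troponin gene TNNT3 differed by -1.44 (146 and 473 reads) and 1.09 (461 and 37 reads). Of the gene lists, retinoid handling had a median of 1.48 inside the GFP gate and -0.30 in the GFP-negative fraction, which was likewise not tested.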

How the results depend on the processing

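No paired analysis was possible because each group has 1 library. The 463 higher and 187 lower genes became 889 and 371 with a filter of 1 read or of 1 CPM in either library, 244 and 107 with 10 CPM in both, 911 and 599 at 1.5-fold, and 142 and 19 at 4-fold. Other scalings gave 414 to 459 higher and 186 to 211 lower genes. Thinning both libraries to 4371101 reads gave 508 and 217, of which 434 and 157 were among the original calls. Of the 27 list medians at least 0.25 from that of all genes, 5 changed sign under a filter: cadherins to -0.49, the IRX and related homeobox genes to -0.16 and neural crest markers to -0.19 with 10 CPM in both libraries, SOX factors to -0.051 with that filter and with 1 read, and neural and eye markers to -0.12 and -0.21 under these. Of 145 called named genes, 124 were called under all 8 alternatives tried for single genes and none changed sign. The 21 others include HOXB4, NR2F1, NR4A1, TBX3, ETV5, FOXC2, HHIP, ITGA1, MKI67, TOP2A, CENPF, CD36, PPARGC1B, SC5D and STARD4. Counting intervals do not cover variation between cultures or sorts, and depth limits the HOX genes, CYP26 genes and markers near 0.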
